A study of Homo sapiens with 6 samples.

Results

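In H2087-LCC cells, a human lung adenocarcinoma population selected for its ability to stay latent after dissemination, 161 genes were chosen by their time course in RNA-seq: lower after 3 days of TGFβ than with the receptor inhibitor, and higher again after 7 days. The 6 libraries formed 3 groups of 2. Cells of the first group were kept for 3 days with SB505124 (SB), a blocker of the kinase activity of the type I TGFβ receptor, and serve as the reference, and those of the other groups received TGFβ for 3 days or for 7 days. No SB library of 7 days was used, so at 7 days the time in culture and the TGFβ treatment cannot be told apart. The study describes the 2 libraries of a group as technical replicates, and the spread between them may then be technical only. H2087-LCC is 1 in vivo selected population of an established cell line, and all the groups share it.

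A gene was a member where its mean over the 6 libraries was at least 50 normalized counts, its group mean of log2(normalized count + 1) was lower at 3 days than in SB by more than 0.6, and it was higher at 7 days than at 3 days by more than 0.6. Of the 21293 genes in the table, 12307 reached that mean and 161 of these (1.31%) were members. A further 799 genes passed the fall threshold but not the rise, so members made up 16.8% of the 960 genes that passed the fall. Both differences chose the members and are given below as a description, with no test.

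TGFβ signals through receptors that phosphorylate SMAD2 and SMAD3, and in epithelial cells it represses epithelial genes and promotes an epithelial-to-mesenchymal transition. Interferon-responsive genes, MHC genes, complement genes and NF-κB targets are the parts of the immune repertoire that epithelial cells themselves express. Retinoic acid, made from vitamin A, acts through nuclear receptors and has its own set of induced genes, among them enzymes and binding proteins that limit its level.

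The normalized counts of a library summed to between 34306283 and 36340734. Keratins of simple epithelia were present throughout (KRT8 at 33341 to 42692 normalized counts and KRT18 at 31757 to 50793). EPCAM, the epithelial cell adhesion molecule, was at 10180 and 9106 in SB, 6610 and 5994 at 3 days and 2988 and 3277 at 7 days. The list of 9 lung adenocarcinoma epithelium genes summed to 107138 and 125845 in SB, 99511 and 111747 at 3 days and 103008 and 90198 at 7 days. Against SB, the median log2 difference of its genes was -0.61 at 3 days and -1.03 at 7 days. SOX2, on that list, is a member itself. The leukocyte genes PTPRC, CD3E and NKG7 stayed at 4 or fewer normalized counts in each library, and so did the fibroblast genes DCN, LUM, COL3A1, DPT and THY1. Of the fibroblast list, PDGFRA was at 8 to 16 and COL1A1 at 196 and 250 in SB, 267 and 337 at 3 days and 581 and 457 at 7 days. Of the leukocyte list, CD68 was at 4368 to 5113 in each library and CSF1R at 34 and 31 in SB, 626 and 677 at 3 days and 1114 and 1032 at 7 days. The summed leukocyte list was at 5274 and 5346 in SB, 5021 and 5728 at 3 days and 6196 and 5679 at 7 days, mostly from CD68. HLA-DRA, on that list for antigen-presenting cells, and KDR, on the endothelial list, are members themselves, whereas the endothelial genes VWF, CDH5 and CLDN5 were at 20 or fewer in each library. The other genes of the endothelial list were present: ERG at 217 to 339, PECAM1 at 36 to 67 and TEK at 11 and 12 in SB, 65 and 58 at 3 days and 115 and 117 at 7 days, and the summed list was at 404 to 587. The part of such genes in the members' values was not tested.

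The 2 SB libraries differed at the members. SB library 2 was above library 1 in 147 of the 161 (91.3%), with a median difference of 0.63 on the log2 scale, against 46.7% and a median of -0.02 among all genes that reached the minimum mean. At least a 2-fold excess in library 2 was seen in 44 members and in 136 of the 12307 genes. In no member, and in only 26 of the 12307 genes, was library 2 as far below library 1. Among the 799 genes that passed the fall threshold only, library 2 was above library 1 in 68.3%, with a median of 0.13. The pairs at 3 days and 7 days were closer at the members, with median differences of 0.11 and -0.04. Against SB library 1 alone, 107 members were lower at 3 days by more than 0.6, against library 2 alone 158, and against each of them 104. Without SB library 2 the rule found 99 genes, of which 95 are among the 161, and without library 1 it found 225, of which 155 are. For 104 members the dip thus passed 0.6 against both SB libraries, and for the other 57 it did so against 1 of them only.

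**Figure D1:**
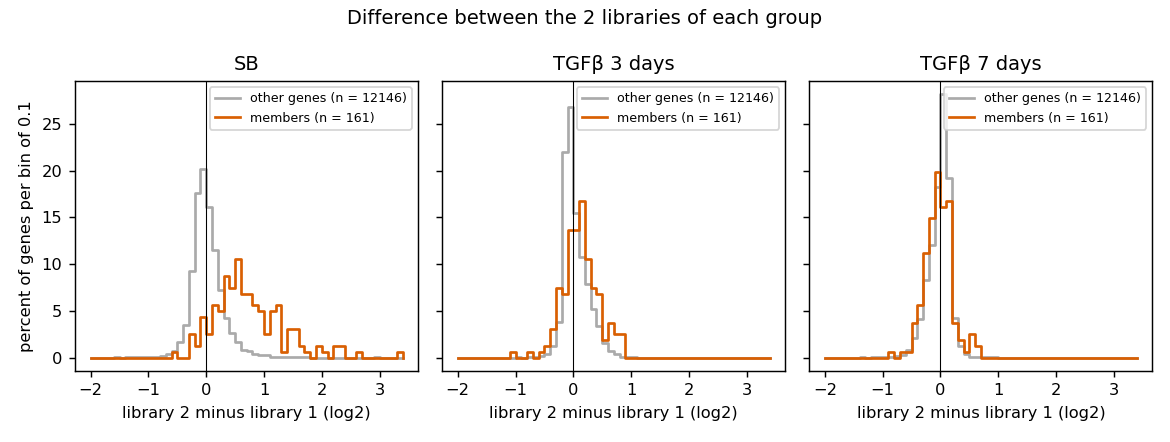
Histograms of the log2 difference between library 2 and library 1 of each group, for the 161 members (orange) and for the 12146 other genes that reached the minimum mean (grey), as percent of genes per bin of 0.1. In SB the members are shifted to the right (median 0.63), and at 3 days and 7 days their medians are 0.11 and -0.04.

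In 155 of the 161 members, both 3-day libraries were below the other 4 libraries, as in 8.59% of all genes with that mean. The rule makes such a pattern likely, so nothing is read from this count. The exceptions were KRT16P2, IFI27, SERPINA3, PLXNB1, DBP and MIR210HG. For IFI27, an interferon-induced membrane protein gene, the SB libraries were at 40 and 430 normalized counts, those of 3 days at 31 and 55 and those of 7 days at 168 and 125. The higher 3-day library of IFI27 was thus above the lower SB library.

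The median difference of the members on the log2 scale was -1.09 at 3 days against SB, with a range from -7.38 (KRT16P2) to -0.61 (HNMT), and 1.03 at 7 days against 3 days, with a range from 0.61 to 4.33 (SERPINA3). In the fit of limma over 14395 genes, 147 members were called lower at 3 days than in SB, where 14.0% of all genes tested were called lower and 14.9% higher. Between 7 days and 3 days, 137 members were called higher, where 17.0% of the genes tested were called higher and 16.2% lower. As the rule used both contrasts, these counts carry no further information on the members. The same shares apply to the counts of these calls by list below. Members on a list were chosen by both contrasts, so those counts are a description only. Both calls were made for 129 members. The 14 not called at 3 days included IFI27, OAS2, IFI6 and SERPINA3, and the 24 not called at 7 days against 3 days included CEACAM5, ELF3, CD74, HLA-DPA1 and MUC1.

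At 7 days the members lay on both sides of SB. On the log2 scale, 92 were below and 69 above the SB mean, with a median of -0.10 and a range from -6.58 to 3.54. The rise from 3 days to 7 days made up a median of 90.5% of the preceding fall. It was under 50% in 25 members, between 50% and 100% in 67 and at or over 100% in 69. Both 7-day libraries were below both SB libraries in 48 members and above both in 25, and in the other 88 the 2 groups overlapped. The share of all genes with such a separation was not counted, so nothing is read from these 3 counts. The fit called 41 members lower than SB at 7 days and 17 higher, with 103 not called, where 26.9% of all genes tested were called lower and 27.7% higher. The same shares apply to the counts of these calls by role below, which are a description only. This position turned on the SB library: the 7-day mean was above SB library 1 in 104 members and above SB library 2 in 39. Without SB library 1, 70 members were called lower and 7 higher, and without library 2, 26 lower and 44 higher.

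**Figure D2:**
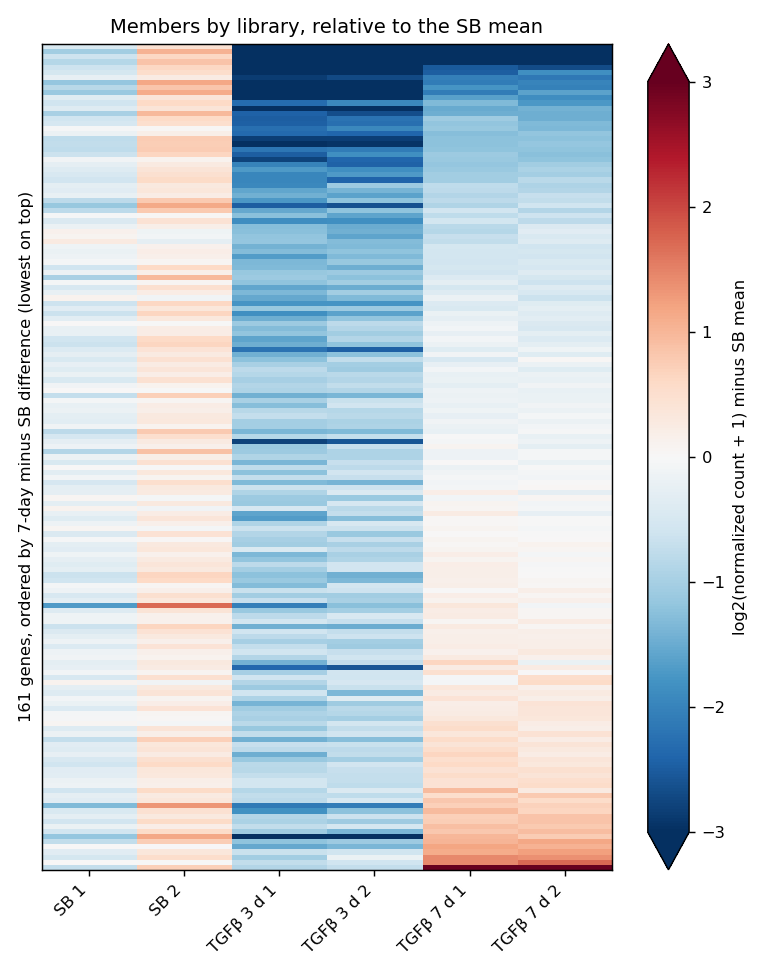
Heatmap of the 161 members (rows, ordered by the 7-day minus SB difference) in the 6 libraries (columns), coloured by log2(normalized count + 1) minus the gene's SB mean, with colours saturating at -3 and 3. Both 3-day columns are blue, SB library 2 is above library 1 in 147 rows, and the 7-day columns run from far below SB at the top to above it at the bottom.

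**Figure D3:**
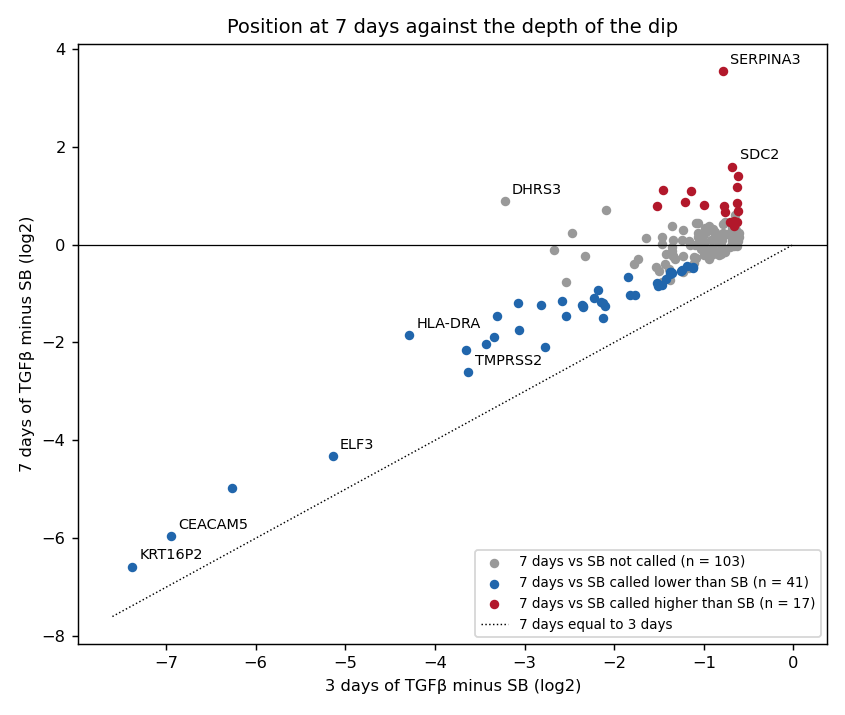
Scatter of the 161 members, with the log2 difference between 3 days and SB on the x axis and that between 7 days and SB on the y axis. Points are coloured by the limma call of 7 days against SB (41 lower in blue, 17 higher in red, 103 not called in grey), and each lies above the dotted line of equal 3-day and 7-day values, as the rule requires.

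Promoter sequences were looked up in RefSeq (GRCh38.p14) as the 250 bases before and the 50 bases after the start of a gene, and 122 of the 161 members had an entry. The interferon-stimulated response element, which interferon-activated STAT and IRF factors bind, was searched by its core GAAANNGAAA on both strands. It was found in 11 of the 122 member promoters (9.02%), in 3.65% of all 27305 promoters and in 2.71% of the 9861 promoters of genes that reached the minimum mean. Of the 12 promoters of interferon-response, MHC class I and MHC class II members, 7 held it. These roles were drawn up from what the genes are known for, after the values were seen. The share among interferon-response genes that are no members was not counted, so this count says nothing about the time course. These 7 are shown because they hold a sequence feature that the rule did not use and that is known for interferon-induced genes, each as read along its gene with the core, or its reverse complement, in capitals. They are EPSTI1 (chr13:42992192-42992491, minus strand), HLA-F (chr6:29723184-29723483, plus strand), IFI27 (chr14:94110486-94110785, plus strand), IFI6 (chr1:27672143-27672442, minus strand), IFITM1 (chr11:313790-314089, plus strand), LGALS3BP (chr17:78979874-78980173, minus strand) and LGALS9 (chr17:27630938-27631237, plus strand).
EPSTI1: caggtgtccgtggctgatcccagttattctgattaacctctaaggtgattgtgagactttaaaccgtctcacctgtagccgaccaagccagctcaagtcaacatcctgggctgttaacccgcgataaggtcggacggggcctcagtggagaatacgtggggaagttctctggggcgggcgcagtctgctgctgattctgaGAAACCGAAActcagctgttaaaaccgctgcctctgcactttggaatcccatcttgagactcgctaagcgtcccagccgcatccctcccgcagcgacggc
HLA-F: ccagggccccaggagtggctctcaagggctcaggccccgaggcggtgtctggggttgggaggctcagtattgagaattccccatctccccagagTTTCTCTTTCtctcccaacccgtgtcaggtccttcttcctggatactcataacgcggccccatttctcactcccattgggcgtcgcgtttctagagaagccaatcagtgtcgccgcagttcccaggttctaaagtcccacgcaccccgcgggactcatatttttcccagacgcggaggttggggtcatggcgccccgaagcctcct
IFI27: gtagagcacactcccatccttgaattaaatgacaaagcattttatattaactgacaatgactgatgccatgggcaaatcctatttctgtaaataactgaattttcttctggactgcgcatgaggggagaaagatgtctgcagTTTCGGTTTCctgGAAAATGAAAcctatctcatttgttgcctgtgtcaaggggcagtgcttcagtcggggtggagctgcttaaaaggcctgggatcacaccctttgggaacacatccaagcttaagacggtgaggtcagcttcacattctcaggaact
IFI6: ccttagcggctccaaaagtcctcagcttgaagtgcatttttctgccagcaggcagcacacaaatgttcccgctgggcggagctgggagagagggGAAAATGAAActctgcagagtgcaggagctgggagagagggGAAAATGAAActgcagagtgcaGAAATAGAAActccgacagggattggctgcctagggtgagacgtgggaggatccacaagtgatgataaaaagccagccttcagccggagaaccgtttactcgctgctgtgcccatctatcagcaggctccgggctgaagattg
IFITM1: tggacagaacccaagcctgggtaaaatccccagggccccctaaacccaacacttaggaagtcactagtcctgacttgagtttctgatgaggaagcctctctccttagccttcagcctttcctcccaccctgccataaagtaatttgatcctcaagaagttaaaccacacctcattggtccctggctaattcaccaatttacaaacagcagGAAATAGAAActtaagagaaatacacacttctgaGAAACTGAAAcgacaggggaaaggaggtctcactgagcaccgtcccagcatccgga
LGALS3BP: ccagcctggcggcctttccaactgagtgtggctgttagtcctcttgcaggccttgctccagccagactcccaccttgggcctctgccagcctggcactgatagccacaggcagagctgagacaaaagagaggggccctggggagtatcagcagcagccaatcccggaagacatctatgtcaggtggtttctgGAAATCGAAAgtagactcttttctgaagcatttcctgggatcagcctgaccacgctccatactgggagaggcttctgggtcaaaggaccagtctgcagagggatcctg
LGALS9: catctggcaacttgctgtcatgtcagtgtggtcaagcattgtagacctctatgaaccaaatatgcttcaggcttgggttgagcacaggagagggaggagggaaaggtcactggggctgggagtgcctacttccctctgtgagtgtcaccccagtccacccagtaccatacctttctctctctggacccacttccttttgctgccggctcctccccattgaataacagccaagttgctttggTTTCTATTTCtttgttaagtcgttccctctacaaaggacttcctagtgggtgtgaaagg
The core stands once in EPSTI1, HLA-F, LGALS3BP and LGALS9, and more than once in IFI27, IFI6 and IFITM1. Outside these genes it was found in the promoters of CFB, CLDN7, SLC2A12 and TRIM2. A match of letters is a description and not a bound site.

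Other motifs were searched in the same windows. The κB motif GGGNNTTTCC was in 4.10% of member promoters (CD74, ELF3, PLEKHB1, PLLP and TNFRSF9), 1.92% of all promoters and 2.23% of those of genes that reached the minimum mean. In the same order, the AP-1 motif TGANTCA was in 9.02%, 7.76% and 4.60%, and the TEAD motif GGAATG in 13.9%, 14.0% and 10.6%. The E-box CAGGTG that ZEB and SNAI factors bind was in 22.1%, 20.6% and 18%, and the SMAD motif GTCTAG in 6.56%, 5.81% and 4.93%. The GRHL motif AACCGGTT and the retinoic acid response element with its half-sites spaced by 5 or 2 bases were in none of the 122 windows, and in 0.117%, 0.0806% and 0.0439% of all promoters, and 0.142%, 0.0304% and 0.0304% of those of genes that reached the minimum mean.

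The 4 members of MHC class II, which presents peptides of taken-up proteins to CD4+ T cells, were HLA-DRA, HLA-DPA1, HLA-DMA and CD74. HLA-DRA, the invariant alpha chain of HLA-DR (GRCh37, chromosome 6, 32407655 to 32412823), was at 101 and 484 normalized counts in SB, 12 and 9 at 3 days and 51 and 72 at 7 days. The 3 groups did not overlap, and the 7-day libraries stayed below both SB libraries (7 days minus SB on the log2 scale -1.85, 95% interval -3.02 to -0.68). CD74, the invariant chain that guides class II molecules, was at 249 and 1236 in SB, 48 and 53 at 3 days and 128 and 141 at 7 days. HLA-DPA1 was at 51 and 198, then 18 and 15, then 36 and 36. For both, the 7-day rise was not called, and the 7-day libraries lay between those of 3 days and SB. HLA-DMA, which loads peptides onto class II molecules, was at 91 and 225 in SB, 60 and 52 at 3 days and 162 and 144 at 7 days, and its 7-day libraries lay between the 2 SB libraries.

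Each of the 4 was higher in SB library 2, by 2.47 times (HLA-DMA) to 4.96 times (CD74), with a median log2 difference of 2.09, and each was lower at 3 days by more than 0.6 against either SB library. CIITA, the transactivator that drives class II genes, was just under the minimum mean with 49.8, at 31 and 160 in SB, 8 and 6 at 3 days and 52 and 42 at 7 days. Of the 13 class II genes listed, 8 were tested: 6 were called lower at 3 days, 4 higher at 7 days than at 3 days, and 3 lower at 7 days than in SB, with medians of -2.42, 1.37 and -0.77 against -0.02, 0.02 and -0.00 over all genes tested. The 4 members are among these 8 and were chosen by the first 2 contrasts, and the list was written after the values were seen. These counts and medians are therefore a description. HLA-DPB1, whose exons overlap HLA-DPA1 on the opposite strand, was at 305 and 438 in SB, 331 and 339 at 3 days and 346 and 337 at 7 days. The library kit does not mark strand, so reads from such overlaps could not be told apart.

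The 12 members of the interferon response and MHC class I were OAS1, OAS2, MX2, IFI6, IFI27, IFITM1, EPSTI1, DHX58, LGALS9, LGALS3BP, HLA-F and HCP5. OAS1, a sensor of double-stranded RNA that activates RNase L, was at 60 and 292 normalized counts in SB, 23 and 21 at 3 days and 70 and 87 at 7 days. IFITM1, a membrane protein that restricts viral entry, was at 544 and 1085 in SB, 141 and 159 at 3 days and 337 and 306 at 7 days. IFITM1 was the only one of the 12 called lower than SB at 7 days, and its 3 groups did not overlap. MX2, an interferon-induced GTPase, was at 241 and 648, then 144 and 151, then 351 and 342, so that its 7-day libraries lay between the SB libraries. LGALS3BP, a secreted galectin-binding glycoprotein, was at 9122 and 10916 in SB, 5814 and 7152 at 3 days and 11833 and 10358 at 7 days. Its difference of -0.63 at 3 days against SB on the log2 scale was the smallest of the 12, and that of OAS1, -2.54, the largest.

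SB library 2 was above library 1 in all 12, with a median log2 difference of 1.33, and 7 of the 12 were lower at 3 days by more than 0.6 against each SB library. OAS2 was at 163 and 633 in SB, 150 and 137 at 3 days and 241 and 222 at 7 days, and IFI6 at 243 and 822, 211 and 235, and 404 and 432. In both, the distance of the 3-day libraries from SB library 1 was smaller than the distance between the SB libraries, and neither contrast was called. HLA-F, a non-classical class I gene, was at 165 and 282 in SB, 97 and 129 at 3 days and 316 and 245 at 7 days.

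Of 42 interferon-stimulated genes listed, 23 were called lower and 4 higher at 3 days than in SB. Between 7 days and 3 days, 14 were called higher and 4 lower, and at 7 days against SB, 16 lower and 7 higher. The medians of these contrasts were -0.63, 0.46 and -0.29. Over all genes tested, 14.0% were called lower and 14.9% higher at 3 days, and 17.0% higher and 16.2% lower at 7 days than at 3 days. The 42 include 8 members, which were chosen by the first 2 contrasts. SB library 2 was above library 1 in 39 of the 42, with a median log2 difference of 0.48. Not every listed gene came back: ISG15, a ubiquitin-like modifier, was at 395 and 541 in SB, 223 and 292 at 3 days and 239 and 145 at 7 days, and IFIT2 at 937 and 1216, 574 and 478, and 364 and 396. Outside the members, the genes called higher at 7 days than at 3 days by the most were XAF1 (2.39 on the log2 scale) and UBE2L6 (1.11). Of 23 MHC class I genes listed, 10 were called lower at 3 days and 4 higher, and 9 were called higher at 7 days than at 3 days and 1 lower. HLA-B was at 4607 and 7340 in SB, 4111 and 4295 at 3 days and 10448 and 9795 at 7 days, and B2M, the light chain of class I, at 61251 and 73393, 54023 and 49531, and 85149 and 90935. HLA-F was the only member among the class I genes, as each of the others was less than 0.6 lower at 3 days or less than 0.6 higher at 7 days. HLA genes share sequence, and their counts are uncertain to that extent.

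The 6 complement and acute-phase members had the largest median difference between 7 days and 3 days of any role, 2.16 on the log2 scale. The rule used this difference and the roles were drawn up after the values were seen, so the ranking is a description. CFB, complement factor B of the alternative pathway, was at 208 and 1329 normalized counts in SB, 121 and 125 at 3 days and 861 and 851 at 7 days. CFI, the protease that inactivates C3b and C4b, was at 654 and 1808, then 474 and 511, then 2207 and 2448. C1R, a protease of the classical pathway, was at 118 and 317, then 71 and 79, then 283 and 226. The 7-day libraries of CFB and C1R lay between the SB libraries and those of CFI above both (7 days minus SB 1.10 on the log2 scale, 95% interval 0.39 to 1.80). The exons of CFB overlap those of C2 and those of C1R overlap C1RL, on the same strand. C2 was at 8 to 11 in each library. C1RL was at 760 and 1165 in SB, 651 and 750 at 3 days and 1223 and 1098 at 7 days, above C1R in each library.

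SERPINA3, the acute-phase protease inhibitor α1-antichymotrypsin, showed the highest rise of all members, from 8 and 9 at 3 days to 185 and 196 at 7 days, after 9 and 26 in SB. Its dip rests on SB library 2 alone, since library 1 was at the level of the 3-day libraries, and the dip was not called. AGT, angiotensinogen, was at 44 and 98 in SB, 31 and 25 at 3 days and 115 and 125 at 7 days. CHI3L1, a secreted chitinase-like protein, was at 4544 and 7851 in SB, 577 and 626 at 3 days and 2089 and 2221 at 7 days, so that its 7-day libraries stayed below SB. The 6 genes of this role had a median 7-day minus SB difference of 0.78, with 3 called higher, 1 lower and 2 not called. Of the 17 complement genes found in the table, 15 were tested, of which 5 were called lower and 1 higher at 3 days, and 8 were called higher at 7 days than at 3 days. C3, the central complement component, was at 2 and 21 in SB, 4 and 7 at 3 days and 30 and 31 at 7 days, and C1S at 21 and 46, 58 and 48, and 206 and 211, so that C1S had no dip.

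Of the 11 cytokine, adhesion and NF-κB members, 9 had a 7-day mean above SB library 1 and none had one above SB library 2. ICAM1, the adhesion ligand of leukocyte integrins, was at 1545 and 3000 normalized counts in SB, 1050 and 1049 at 3 days and 2465 and 2232 at 7 days. BCL3, a nuclear IκB protein, was at 179 and 442, then 103 and 99, then 337 and 295. In both, the 7-day libraries lay between the SB libraries, with intervals of the 7-day minus SB difference of -0.36 to 0.60 and -0.52 to 0.84. CX3CL1, the membrane-bound chemokine fractalkine, was at 1026 and 1689 in SB, 149 and 165 at 3 days and 422 and 360 at 7 days, and CSF1, the macrophage growth factor, at 1436 and 1977, 664 and 823, and 1288 and 1217. These 2 of the 11 in this role were called lower than SB at 7 days, and the other 9 were not called.

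Among 36 NF-κB targets and cytokines in the table, 27 were tested. Of these, 15 were called lower and 1 higher at 3 days, and 10 higher and 4 lower at 7 days than at 3 days. Over all genes tested, 14.0% were called lower and 14.9% higher at 3 days, and 17.0% higher and 16.2% lower at 7 days than at 3 days. The 27 include 4 members, which were chosen by both contrasts. SB library 2 was above library 1 in 23 of the 27, with a median log2 difference of 0.71. The chemokine CXCL2 was at 303 and 648 in SB, 115 and 120 at 3 days and 95 and 73 at 7 days, and the growth factor CSF2 at 231 and 468, 81 and 55, and 38 and 33, so neither came back. The genes outside the members called higher at 7 days than at 3 days by the most were CCL2 (1.82 on the log2 scale), IL1A (1.69) and TNFSF10 (1.36). None of these 3 was called lower at 3 days.

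**Figure D4:**
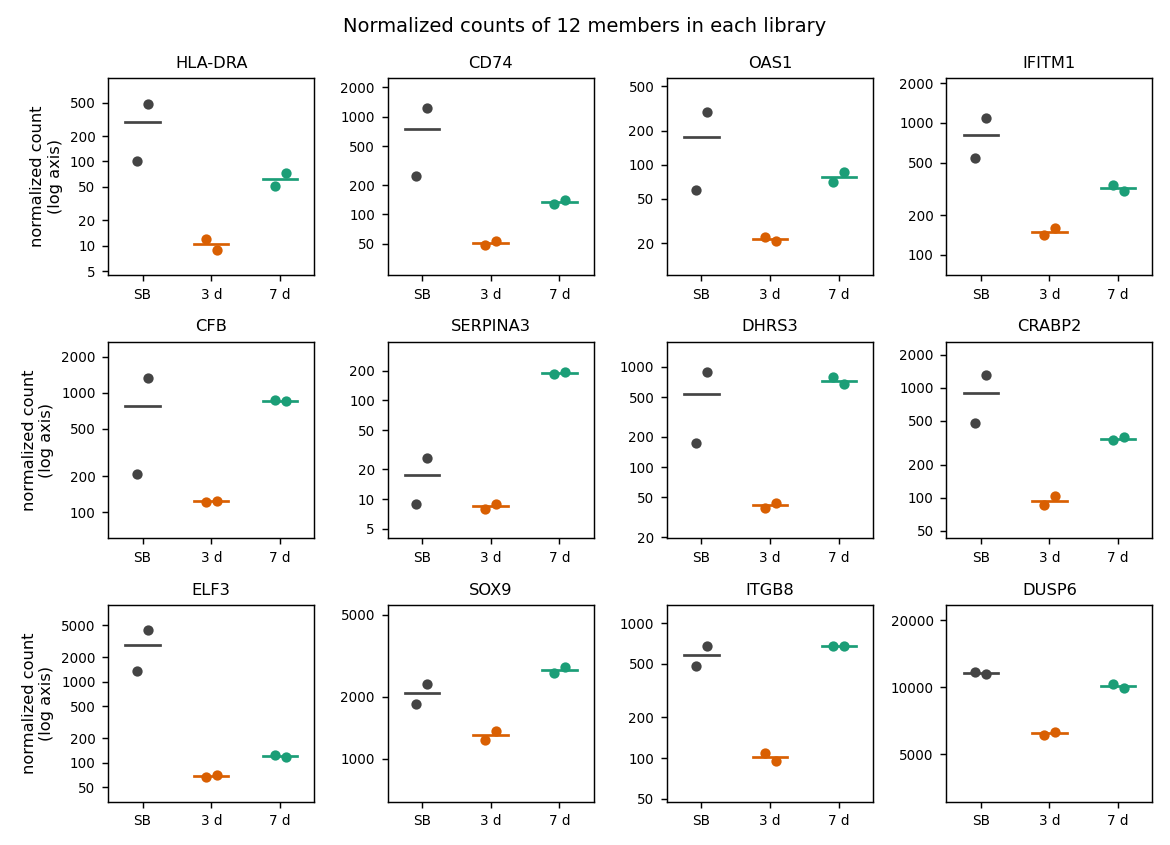
Normalized counts of 12 members on log axes, with 1 point per library (SB in grey, 3 days of TGFβ in orange, 7 days in green) and a bar at the arithmetic mean of the 2 libraries. The 3-day points are the lowest in each panel (in SERPINA3 the higher one is level with SB library 1), and the SB points of HLA-DRA, CD74, OAS1, CFB and DHRS3 lie more than 4 times apart.

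The retinoid members were DHRS3 and CRABP2. DHRS3, which reduces retinal to retinol and so limits retinoic acid (GRCh37, chromosome 1, 12627939 to 12678216), was at 175 and 888 normalized counts in SB, 39 and 44 at 3 days and 789 and 671 at 7 days. Its 7-day libraries lay between the SB libraries, with differences of 2.05 from library 1 and -0.29 from library 2 on the log2 scale. CRABP2, which carries retinoic acid to its nuclear receptor, was at 478 and 1311, then 85 and 103, then 336 and 354, and stayed below both SB libraries. CYP24A1, the vitamin D 24-hydroxylase, was at 425 and 954 in SB, 330 and 306 at 3 days and 1069 and 1146 at 7 days, and CYP1B1, a cytochrome P450 that acts on steroids and aryl hydrocarbons, at 494 and 611, 376 and 322, and 737 and 804. Both were above the 2 SB libraries at 7 days and were called higher. Of the 19 retinoid genes tested, 5 were called lower and 2 higher at 3 days, 9 higher at 7 days than at 3 days, and 5 lower and 8 higher at 7 days than in SB, with medians of 0.07, 0.34 and 0.44.

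Transcription factors among the members took different positions at 7 days. ELF3, an epithelial ETS factor (GRCh37, chromosome 1, 201977073 to 201986311), was at 1359 and 4388 normalized counts in SB, 66 and 71 at 3 days and 124 and 118 at 7 days. Its 7-day rise recovered 15.8% of the fall and was not called, and its 7-day minus SB difference was -4.32 on the log2 scale (95% interval -5.15 to -3.50). SOX2, a factor of the primitive foregut, was at 1552 and 2658 in SB, 626 and 569 at 3 days and 942 and 1049 at 7 days, and SOX2-OT, the noncoding transcript of that locus, at 97 and 116, 39 and 42, and 73 and 70. Both recovered in part and were called lower than SB at 7 days. SOX9, a factor of distal lung progenitors, was at 1835 and 2305, then 1233 and 1365, then 2591 and 2769. It was above both SB libraries at 7 days, by 0.38 on the log2 scale (95% interval 0.13 to 0.64).

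ID3, an inhibitor of basic helix-loop-helix factors and a target of BMP signalling, was at 409 and 352 in SB, 131 and 150 at 3 days and 336 and 244 at 7 days. It was the only ID gene among the members: ID1 was at 472 and 517, 496 and 577, and 1512 and 1231, and ID2 at 65 and 38, 149 and 141, and 308 and 279, with no dip. Of the 18 BMP genes tested, 8 were called higher and 2 lower at 3 days. The clock output genes DBP (31 and 69, then 25 and 34, then 90 and 56) and CIART (169 and 212, then 118 and 122, then 192 and 215) were members, and of 19 clock genes 9 were called higher at 7 days than at 3 days and 1 lower. PER3 was called higher by 1.65 on the log2 scale. Of the 19 lung progenitor and epithelial factors tested, 9 were called lower and 3 higher at 3 days, and 7 higher and 5 lower at 7 days than at 3 days. NKX2-1, the factor of the lung lineage, was at 2784 and 2908 in SB, 712 and 748 at 3 days and 853 and 857 at 7 days, and FOXA2 at 490 and 642, 75 and 99, and 68 and 75, so these fell without a called recovery. Among the other factors of this role, SALL2 and SALL4, both zinc finger proteins of early development, recovered 140% and 122% of the fall.

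Epithelial surface, adhesion and matrix genes were the largest role, with 26 members, and their median 7-day minus SB difference was -0.53, with 12 called lower, 1 higher and 13 not called. Over all genes tested, 26.9% were called lower and 27.7% higher. CEACAM5, carcinoembryonic antigen, was at 59 and 254 normalized counts in SB, 0 and 0 at 3 days and 1 and 1 at 7 days, and entered through the pseudocount of 1. Its recovery is a difference of 1 normalized count and was not called. TMPRSS2, an epithelial membrane protease, was at 203 and 486, then 30 and 20, then 54 and 48, and MUC1, a membrane mucin, at 448 and 1289, then 169 and 177, then 330 and 330. Both stayed below the SB libraries. The exons of TMPRSS2 overlap MX1 on the opposite strand, and MX1 was at 537 and 1799 in SB, 255 and 269 at 3 days and 366 and 359 at 7 days. GLDN, an olfactomedin-domain protein, was at 369 and 756, 33 and 51, and 94 and 146.

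ITGB8, the integrin subunit that pairs with ITGAV to activate latent TGFβ (GRCh37, chromosome 7, 20370325 to 20455377), was at 481 and 675 normalized counts in SB, 110 and 95 at 3 days and 674 and 676 at 7 days. Both 7-day libraries were at the level of SB library 2. CLDN7, a claudin, was at 312 and 511, then 232 and 266, then 457 and 391, between the SB libraries at 7 days. SDC2, a heparan sulfate proteoglycan, was at 33 and 32 in SB, 19 and 21 at 3 days and 90 and 110 at 7 days, the only one of the 26 called higher than SB at 7 days. PLXNB1, a semaphorin receptor, was at 201 and 464, then 174 and 205, then 461 and 380, with a 3-day library above SB library 1. Of the 23 adherens and tight junction genes tested, 11 were called lower and 2 higher at 3 days, and 8 higher and 9 lower at 7 days than at 3 days. CDH1, E-cadherin, was at 371 and 635 in SB, 28 and 24 at 3 days and 10 and 9 at 7 days and is no member.

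KRT16P2 and KRT16P3 are pseudogenes of KRT16 with near-identical copies, so their counts are uncertain. KRT16P2 was at 516 and 959 normalized counts in SB, 5 and 2 at 3 days and 5 and 8 at 7 days, and KRT16P3 at 99 and 236, 1 and 1, and 5 and 3. Their 7-day values were below 10, and neither rise was called. With CEACAM5, these are the 3 members with a 7-day mean under 10.

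Lysosomal and protease inhibitor members included NPC2, which moves cholesterol out of lysosomes, at 7033 and 8637 normalized counts in SB, 3917 and 3829 at 3 days and 8808 and 8769 at 7 days. The cystatins CST2 and CST4, secreted inhibitors of cysteine proteases, were at 112 and 164, 19 and 22, and 130 and 121, and at 69 and 69, 23 and 26, and 159 and 144. CST4 was above both SB libraries at 7 days, by 1.12 on the log2 scale against either library, and CST2 lay within them. As the cystatin genes of this cluster are near copies of each other, their counts are uncertain. CTSH, a lysosomal cysteine protease, was at 270 and 365, then 115 and 103, then 169 and 194, below SB at 7 days. In this role all 6 members were lower at 3 days by more than 0.6 against each SB library.

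Signalling members included DUSP6, the phosphatase that inactivates ERK and is induced by it, at 11683 and 11449 normalized counts in SB, 6104 and 6289 at 3 days and 10336 and 9939 at 7 days. It is one of the 14 members for which SB library 2 was not above library 1, and its 3-day libraries lay far below either SB library. ARRDC3, an α-arrestin, was at 2779 and 3479, then 2058 and 1928, then 3381 and 3837. KDR, a VEGF receptor, was at 98 and 225, 26 and 31, and 70 and 53, and was called lower than SB at 7 days. The other 9 of the 10 signalling members were not called at 7 days against SB.

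The 9 vesicle and neuroendocrine members included SYNGR3, SYT12, SYT17, DOC2A, SCG2, CPE, SORT1 and ENO2. SYT12, a synaptotagmin, was at 119 and 224 normalized counts in SB, 46 and 69 at 3 days and 314 and 254 at 7 days, the one of the 9 called higher than SB at 7 days. ENO2, neuron-specific enolase, was at 1763 and 2370, then 906 and 990, then 1736 and 1678. CPE, carboxypeptidase E of secretory granules, was at 1316 and 1686, then 791 and 789, then 1350 and 1428. The other 8 were not called at 7 days against SB, and the median of the 9 was -0.10.

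Transport and metabolism held 16 members, of which 5 were called lower than SB at 7 days, 1 higher and 10 not. The shares over all genes tested were 26.9% lower and 27.7% higher. SCD5, a stearoyl-CoA desaturase, was at 146 and 238 normalized counts in SB, 117 and 123 at 3 days and 406 and 436 at 7 days, the one called higher. SLC2A12, a glucose transporter, was at 649 and 1132, then 185 and 156, then 667 and 787, and the other solute carriers SLC1A1, SLC9A3 and SLC26A9 were 0.61 to 0.64 higher at 7 days than at 3 days. ATP8A1, a phospholipid flippase, was at 93 and 294, then 15 and 16, then 48 and 40. Of 25 sterol and lipid synthesis genes tested, 10 were called higher at 3 days than in SB, and none is a member.

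The other 36 members had no shared role. They included 3 genes named by family (FAM46C, FAM49A and FAM78B) and the pleckstrin homology domain genes PLEKHA4, PLEKHB1 and PLEKHH3. C17orf103, C6orf223 and C8orf4, also among them, are named as open reading frames, although C6orf223 is annotated as a long noncoding RNA. FAM49A was at 1999 and 2515 normalized counts in SB, 444 and 428 at 3 days and 921 and 991 at 7 days, and FAM46C at 1754 and 1637, 802 and 778, and 1604 and 1775. FAM49A was called lower than SB at 7 days, whereas the 7-day and SB libraries of FAM46C overlapped. MIR210HG, the host transcript of a hypoxia-responsive miRNA, was at 55 and 114, 38 and 69, and 218 and 208. In 24 of the 36 the 7-day value was not called against SB, in 7 it was lower and in 5 higher, where 26.9% of all genes tested were called lower and 27.7% higher.

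**Figure D5:**
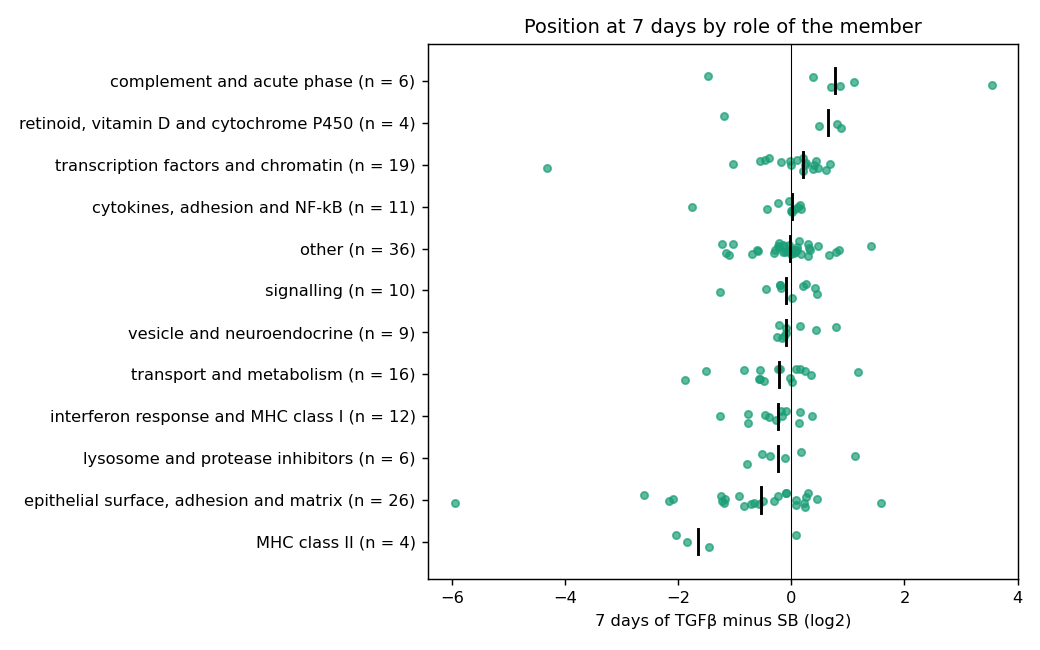
Log2 difference between 7 days of TGFβ and SB for each member, by role, with a bar at the median of the role. The keratin pseudogenes (median -5.78) are left out. Complement and acute-phase genes have the highest median (0.78) and MHC class II genes the lowest shown (-1.66).

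Of the lists of other pathways, those with no member were WNT, NOTCH, YAP and TAZ, FOXO and sterol synthesis. Among the 23 YAP and TAZ targets, 16 were called lower and 3 higher at 7 days than at 3 days, with ANKRD1 at 258 and 108 normalized counts in SB, 173 and 138 at 3 days and 3 and 6 at 7 days. Of 26 FOXO targets, 8 were called lower and 9 higher at 3 days, and 14 higher and 6 lower at 7 days than at 3 days. SESN3, a stress-induced sestrin, was at 2868 and 3112, then 784 and 746, then 1095 and 1184, so that it rose by less than 0.6. Of 17 NOTCH genes tested 6 were called higher and 2 lower at 7 days than at 3 days, and of 13 WNT genes 5 and 3. Of the signatures the study lists, 3 of the 95 quiescence genes that reached the minimum mean were members (ENO2, ITGB8 and TRIM2, 3.16% of that list and 1.86% of the members). No gene of the S phase list of 42, the G2/M list of 54 or the EMT list of 45 was a member. Members made up 1.31% of all genes that reached the minimum mean, so lists of this size can hold none. Nothing is read from these counts or from the pathway lists with no member.

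Near the thresholds, HNMT (3 days minus SB -0.606), SORT1 (-0.614) and MIR210HG (-0.619) were just inside the fall and LTBP3 (-0.595), VEGFA (-0.594) and ZNF439 (-0.592) just outside. PLD1, ETV6 and SLC26A9 were just inside the rise, at 0.609 to 0.614, and PPL, GLS2 and BRINP2 just outside it, at 0.593 to 0.599. VEGFA, which codes for a vascular growth factor, was at 10129 and 11475 normalized counts in SB, 6811 and 7487 at 3 days and 17681 and 16845 at 7 days. The distance of these genes from a threshold was smaller than the spread between the libraries of a group.

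The annotation showed what else the members shared. Of the 161, 159 were matched to GENCODE on GRCh37, and 94.3% of these are protein coding, as are 95.8% of all genes that reached the minimum mean. Their median exonic length was 4933 bases, and that of those genes 5525. Their median GC content was 54.0% (quartiles 46.5% and 58.8%), against 47.5% (41.4% and 55.6%). Values also moved with GC content by library: the median deviation of the genes in the top quartile of GC content was 0.04 and 0.11 on the log2 scale in the SB libraries, -0.17 and 0.09 at 3 days and 0.10 and -0.11 at 7 days. After each library was corrected for GC content and length, the rule found 141 genes, 132 of them among the 161, and SB library 2 was still above library 1 in 140 of 159 members, with a median of 0.55.

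The extended MHC region of chromosome 6 (28 to 34 Mb) held 8 members, or 5.03% of those annotated, and 121 genes, or 1.0%, of those with a mean of at least 50. The 8 were HLA-DRA, HLA-DPA1, HLA-DMA, HLA-F, HCP5, CFB, AGER and VWA7. Of the 121 genes there, 35 were called lower and 10 higher at 3 days than in SB. The shares over all genes tested were 14.0% and 14.9%. Between 7 days and 3 days, 31 of the 121 were called higher and 15 lower, against shares of 17.0% and 16.2%. Between 7 days and SB, 38 were called lower and 28 higher, against shares of 26.9% and 27.7%. The 8 members are among the 121 and were chosen by the fall at 3 days and the later rise. These counts are therefore a description. Neighbouring genes are not independent of each other. The exons of 31 members overlap another gene of the table, 26 of them on the opposite strand, and no pair of members overlaps.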

How the data were processed

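RNA-seq of polyA RNA was analysed from 6 libraries of H2087-LCC cells, grouped by the labels into SB, TGFβ 3 days and TGFβ 7 days, with 2 libraries each. The authors prepared libraries with a kit that does not mark strand, checked reads with FastQC 0.11.5, mapped them to hg19 with STAR, counted reads on genes with HTSeq 0.6.1p1 and normalized by library size with DESeq2, per the labels (version given there as 3.4). The deposited values are these normalized counts, rounded to whole numbers and recorded here as a score, since counts before normalization cannot be had from them. Depth in reads and its counting error are therefore not given.

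Normalized counts of 21293 genes were taken as log2(value + 1). In R 4.3.3, limma 3.58.1 was run on the 14395 genes whose mean reached 10 (moderated test with a trend on the mean, no term beside the group, 3 residual degrees of freedom), with Benjamini-Hochberg adjustment at 0.05 over all genes. A gene is said to be called, lower or higher, where its adjusted p was under that threshold. The negative binomial test of the study needs raw counts. With 2 libraries a group, p-values measure only the spread between these libraries, pooled over the 3 groups. The script was tested on simulated data. Genes were matched to GENCODE (lifted to GRCh37), and promoters come from RefSeq. Figures used matplotlib 3.10.9 in Python 3.11.15.

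The members, the lists, the motifs and the tests were chosen with earlier results of these data known. The list of MHC class II genes and the roles of the members were written after the values were seen. Named genes were members on a list, the members with the lowest falls, the highest rises, the highest means and the highest and lowest 7-day minus SB differences, those nearest the thresholds, symbol families with 3 or more members and members whose libraries overlap. For other genes of a list, up to 5 called between 7 days and 3 days were named. Members and genes named beside these were chosen after their values were seen. Alternatives were other pseudocounts, filters, thresholds and scalings, limma without the trend, the replicate number as a block and each library left out. The reading of each SB library alone and a correction for GC content and length (loess, span 0.5) were added after the data were seen. Of the table's rows, 27 carry dates in place of gene names, 1 of them a member that is not named here. A further member is counted but not reported here.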

Additional observations from a re-analysis of the deposited data

Results flagged for a closer look

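In 14 members the sides of SB were opposite at the 2 time points: they were called lower than SB at 3 days, higher than 3 days at 7 days and higher than SB at 7 days. These were AGT, C8orf4, CFI, CST4, CYP1B1, CYP24A1, PXYLP1, RNF207, SCD5, SOX9, SYT12, TCEA2, TMEM8B and ZNF606. Of all genes tested, 46 were called lower than SB at 3 days and higher than SB at 7 days. The rule requires the fall and also a rise of more than 0.6 from 3 days to 7 days, so it favours both parts of that pattern. Both comparisons share the SB libraries. Each of the 14 was lower at 3 days by more than 0.6 against SB library 2, but against SB library 1 only AGT, CST4 and SYT12 were (3 of 14). Leaving out 1 library kept the 3 calls in fewer of them: in 4 without SB library 1, 6 without SB library 2, 9 and 10 without the first and second 3-day library, and 6 and 2 without the first and second 7-day library. SCD5 was at 146 and 238 normalized counts in SB, 117 and 123 at 3 days and 406 and 436 at 7 days. CST4, whose SB libraries were equal, was at 69 and 69 normalized counts in SB, 23 and 26 at 3 days and 159 and 144 at 7 days, with no overlap between groups.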

How the results depend on the processing

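The number of genes that met the rule was 308 with a mean of at least 10, 88 with differences of at least 0.8, 58 with differences of at least 1 and 104 where the fall had to hold against each SB library alone, against 161 as reported. Leaving out each library in turn gave 99 to 237. Without a filter on low values, 83 members were called lower at 3 days, 74 higher at 7 days than at 3 days, and 23 lower and 7 higher at 7 days than in SB. The same setting called 3042 of all genes between 7 days and 3 days, and 109 and 106 genes of the 14 lists at 3 days against SB and at 7 days against 3 days. Limma without the trend called 11 members higher at 7 days than in SB and 3122 genes between 7 days and 3 days. Over the fits without 1 library, members lower at 7 days than in SB ranged from 26 to 70 and members higher from 7 to 44, the extremes being those without an SB library (7 also without the second 7-day library). All genes called ranged from 2608 to 3894 at 3 days against SB (lowest without the first 3-day library) and from 2294 to 5570 at 7 days against 3 days (lowest without the second 7-day library). Members lower at 3 days ranged from 103 to 156 and members higher at 7 days than at 3 days from 96 to 156. The cause of these shifts was not tested. Fewer libraries entered each fit without 1 library. As the groups share an estimate of the spread, leaving out a library also changes the spread used for contrasts of the other groups. Deviations of libraries with the same number correlated at 0.22 between SB and 3 days, -0.12 between SB and 7 days and -0.58 between 3 days and 7 days. The numbers were thus not taken as pairs. By the last value, libraries of unlike number tended to deviate alike at 3 days and 7 days, and the cause was not tested. With the replicate number as a block, 152 members were called lower at 3 days and 148 higher at 7 days than at 3 days, and 41 lower and 19 higher at 7 days than in SB.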
